A study of Mus musculus with 12 samples.

Results

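The change of mouse bone marrow monocytes between 12 h and 24 h of culture in M-CSF, with no interferon added, was examined in 6 RNA sequencing libraries of the 12 in the study. The libraries were chosen by their labels: 3 replicates of the control at 12 h and 3 replicates of the control at 24 h, compared in pairs by replicate number. All 645 genes of the authors' deposited table for this comparison were used, out of 2038 genes in the 3 library tables of the study. Genes enter that table if their adjusted p is under 0.05 and they change at least 2-fold, so this same contrast selected every gene named below, apart from those named as not listed. "Higher" and "lower" refer to 24 h against 12 h, and "rose" and "fell" are used of genes that passed the authors' test. A gene outside the table is not shown to be unchanged.

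Monocytes leave the bone marrow as short-lived cells that carry surface and secreted proteins for migration and clotting. The growth factor M-CSF, acting through its receptor on these cells, keeps them alive and drives them to mature into macrophages. Maturing macrophages are known for taking up dead cells, modified lipoproteins and debris, for breaking these down in an enlarged lysosomal compartment, and for secreting complement and growth factors. When cultured with M-CSF they can also share part of the gene program of osteoclasts, the bone-resorbing relatives of macrophages.

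Magnetic sorting was used to purify the cells from bone marrow, and every group was cultured in 20 ng/mL M-CSF. The groups compared got no added interferon. The remaining 6 libraries had 100 U of mouse interferon β (IFNβ) for the same times and are used only near the end. Strain, age and the number of mice are not given in the labels. Nor do they say that the replicates are separate animals or cultures, and the p-values then cover only the spread between these libraries, which can be technical.

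Levels are the authors' normalized counts per library, given in the order of replicates 1, 2 and 3. They are not divided by gene length, so they are compared between libraries and not between genes. A log2 difference is the mean of the 3 within-pair differences of log2(normalized count + 1) with its standard error from limma, with the replicate number as a block. The fit used only the listed genes, which were selected for small p, so these standard errors can be too small. It also ties the spread to the level of a gene (a variance trend). With no such trend 16 of the 97 named genes passed limma, against 88 with it, which is not marked gene by gene below. Adding 1 makes the change of low genes look smaller than it is. Total depth is unknown, because the table holds part of each library. The classical monocyte surface gene Ly6c2 read 23657, 23908 and 23140.3 in the 12 h controls in the table of IFNβ against control at 12 h, a table with its own scale (the same libraries read 1.10 to 1.13 times higher in the table of the time change). Of the 10 macrophage markers, Mertk and Apoe are in the table of the time change. Levels of Csf1r, Adgre1, Cd68 and Itgam were not analysed here. In bulk samples, fewer cells of a type and less RNA per cell cannot be told apart.

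Several libraries stood apart in ways that followed the replicate number. Summed over the 2 listed erythroid markers, replicate 1 read 1231 at 12 h and 303 at 24 h, against 401 to 484 and 48.5 to 155 in the other replicates. Summed over the 6 listed neutrophil markers, replicate 2 read 15120.0 and 41070.0, against 6433 to 7990.1 and 17400.0 to 22111. The genes Mmp9 and Retnlg made up most of that sum. Replicate 1 at 12 h also had the lowest level among the 12 h libraries for all 9 listed hypoxia and glycolysis genes. For the same 9 genes replicate 2 at 24 h had the highest level among the 24 h libraries. Where leaving out a replicate moved the number of a list's members passing limma by over 1.5 times, that number is given with the list (for lists with at least 3 listed members).

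The table held 493 genes that rose and 152 that fell from 12 h to 24 h. Those are 3.12% and 0.961% of 15822 genes, the number tested that follows from the deposited p-values, and 4.08% together. The same p-values imply that at least 1345 genes had an adjusted p as small as the last listed gene at any size of change, and 48.0% of these changed at least 2-fold. The median authors' log2 fold change was 1.64 for the genes that rose and -1.63 for those that fell. At the edge of the selection, the largest adjusted p was 0.0495. The change had the same sign in all 3 replicate pairs for 642 genes, and the libraries of the 2 times did not overlap for 611, which the selection largely fixes. Among the 34 genes whose libraries overlapped, 19 were lower at 24 h. Refitted with limma and adjusted over the 15822 genes, 473 passed with the replicate block, 359 higher and 114 lower, and 277 without it. Since the listing itself rests on small p-values, limma describes these genes and is no independent test.

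**Figure D1:**
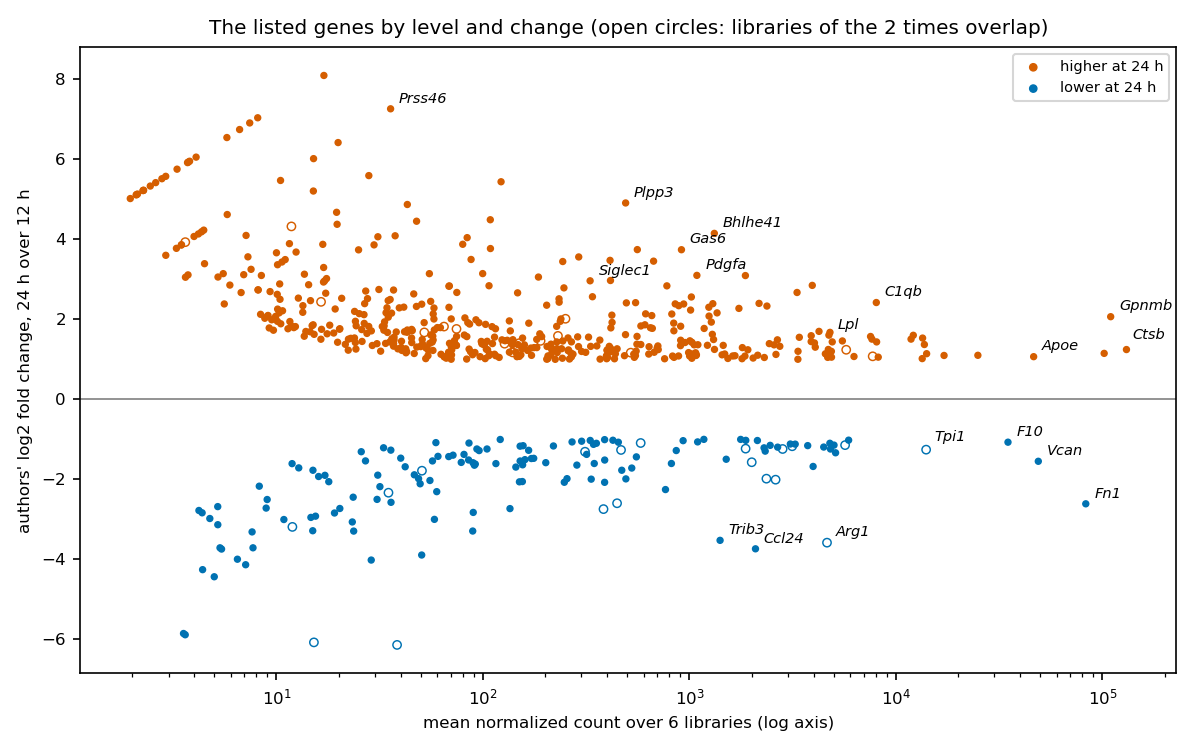
Each point is 1 of the 645 listed genes, with its mean normalized count over 6 libraries on a log axis and the authors' log2 fold change of 24 h over 12 h on the vertical axis. The 493 genes that rose outnumber the 152 that fell, and Fn1, Vcan and F10 are the lower genes with the highest counts.

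Over the 21 gene lists used here, 108 of 765 genes were in the table (14.1%), 67 higher and 41 lower. The lists were chosen with earlier results of these data known, so their shares describe the table and do not test it. In every list most members were not in the table. Among the listed members, those for complement and the uptake of dead cells, lipid handling, the osteoclast program and lysosomes were mostly higher, and those for glycolysis and hypoxia, amino acid stress and alternative activation mostly lower. The median authors' log2 fold change of the listed members was 1.57 for complement and uptake, 1.60 for lipid handling and 1.32 for lysosomes. It was -1.57 for hypoxia and glycolysis, -1.26 for amino acid stress and -1.72 for alternative activation. None of 23 sterol synthesis genes were listed. Of 47 proliferation genes 3 were listed (6.38%), near the share over all genes.

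**Figure D2:**
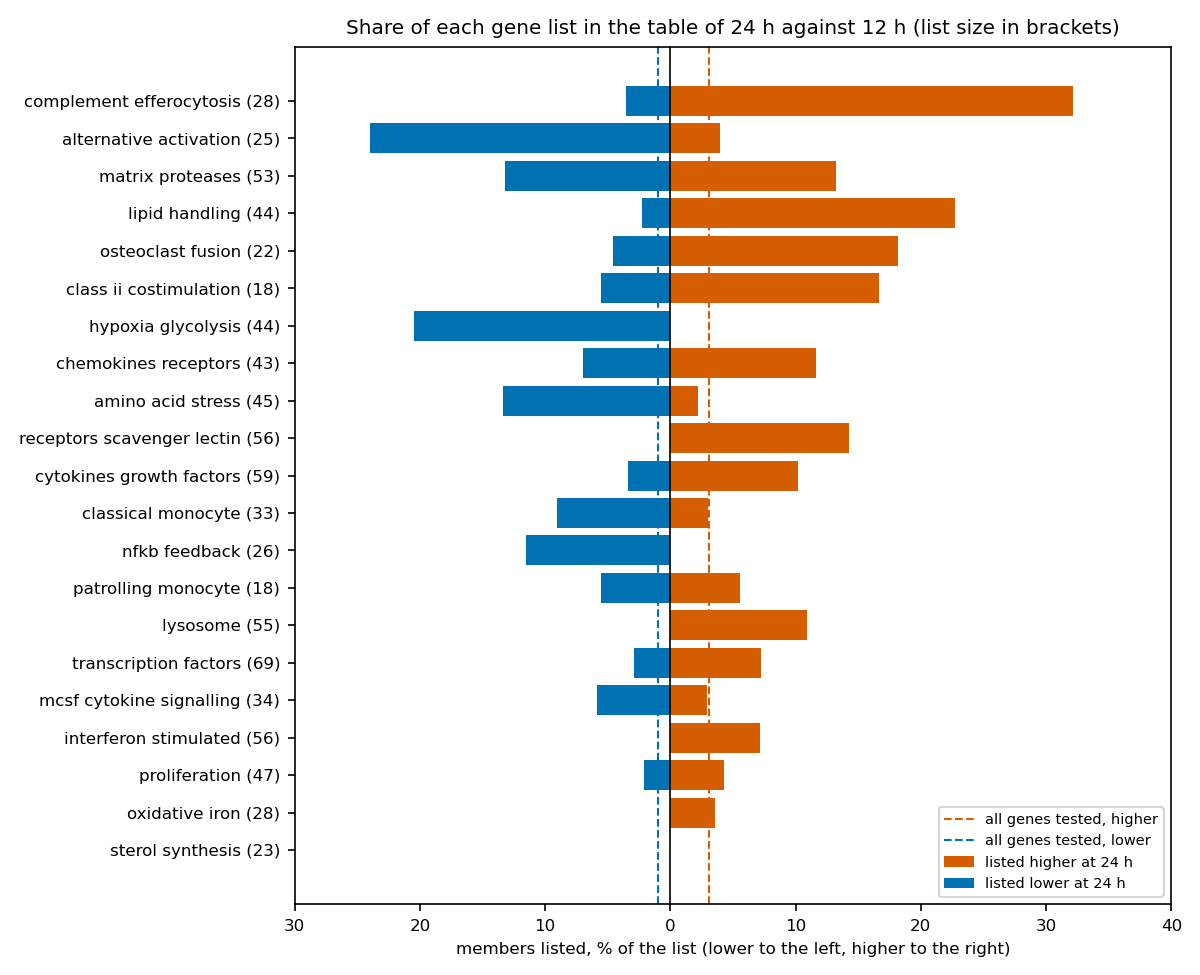
Bars give the share of each gene list in the table, in percent of its members, with genes lower at 24 h to the left and higher to the right; dashed lines mark 0.961% and 3.12%, the shares over all genes tested. Complement and uptake genes reach 9 of 28 higher, and hypoxia and glycolysis genes 9 of 44 lower.

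Among 69 transcription factor genes 5 rose and 2 fell (10.1% listed, against 4.08% of all genes tested). Bhlhe41, a repressor of the circadian clock family that is also found in tissue macrophages (chromosome 6, 145858243 to 145865420, GRCm38), had the smallest p in the authors' deposited table. It read 174, 112 and 137 at 12 h and 2726, 2222 and 2546 at 24 h, a log2 difference of 4.16 ± 0.15 (limma adjusted p = 2.25e-06). The 3 libraries at 24 h were all far above those at 12 h, which the choice of the gene by its small p largely fixes. Nfatc4, a calcium-responsive factor, went the other way, with 58.5, 95.0 and 131 at 12 h and 5.9, 2.63 and 10.4 at 24 h (-3.79 ± 0.42). Its relative Nfatc2 read 741, 625 and 691 at 12 h and 1470.5, 1386 and 1544 at 24 h (1.10 ± 0.13), so the 2 family members moved in opposite directions. The nuclear receptor gene Nr4a3 rose by 1.35 ± 0.17. Maf, whose product drives macrophage genes, read 1332, 1112 and 1636 at 12 h and 3673, 2355 and 2735 at 24 h, and Klf4, a factor of the monocyte state, 6037, 4106 and 5338 at 12 h and 2638, 2052 and 2256 at 24 h. Maf lost its call without the block (adjusted p = 0.0595). Other master regulators of the lineage in this list, such as Spi1, Mitf and Cebpb, were not in the table.

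Genes for tagging and engulfing dead cells rose together. Of the 28 genes on complement and uptake, 9 were higher and 1 was lower (35.7% listed). Gas6 encodes the bridge between dying cells and the uptake receptor Mertk. It read 117, 85.0 and 179.7 at 12 h and 1467, 1029.9 and 2608 at 24 h (3.69 ± 0.16), and Mertk read 213, 280.0 and 378 at 12 h and 958, 798 and 1256 at 24 h (1.80 ± 0.17). Mfge8, another bridging protein, read 621, 650.1 and 793 at 12 h and 1458, 1672 and 2137 at 24 h (1.34 ± 0.13). In each of these genes the lowest 24 h library lay above the highest 12 h library. Most listed genes, 611 of 645, likewise had no overlap, which the selection largely fixes. Axl and Tyro3, the receptors related to Mertk, and the ligand Pros1 were not listed.

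The 3 subunits of C1q, the complement component that starts the classical pathway, moved in parallel. C1qa read 242, 268 and 665 at 12 h and 2761, 2555 and 4705 at 24 h, C1qb 1635, 1731 and 4224 at 12 h and 12169.8, 10219.8 and 18213 at 24 h and C1qc 557, 592 and 1555 at 12 h and 5049.7, 4421 and 7742 at 24 h. Replicate 3 was the highest at each time in all of them, and its within-pair difference was the smallest: 2.82, 2.11 and 2.32, against 3.51, 2.90 and 3.18 in replicate 1. The 3 genes lie next to each other on chromosome 4, from 136880126 to 136898844 (GRCm38). The complement genes Cfb (1.20 ± 0.17) and C4b (1.27 ± 0.29) were also listed. C4b did not pass limma (adjusted p = 0.0554), and Cfb did not without the block (0.0713). The scavenger receptor gene Cd36 read 6948, 3513 and 4437 at 12 h and 14783, 6328 and 10282 at 24 h, so its groups overlapped, although each pair rose, by 1.09, 0.85 and 1.21. Without the block it did not pass (adjusted p = 0.359).

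**Figure D3:**
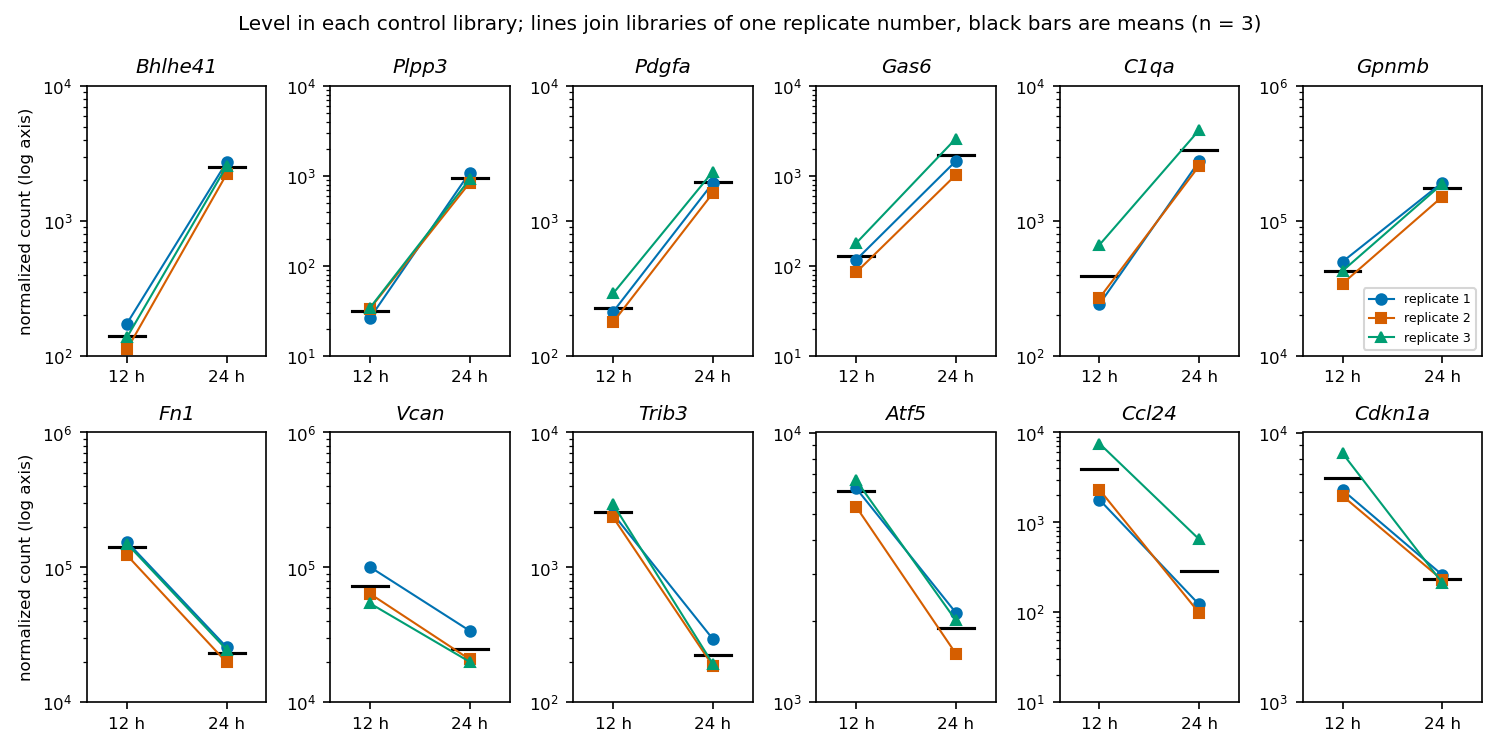
Each panel shows 1 gene, with the normalized count of each control library on a log axis at 12 h and 24 h; lines join libraries of the same replicate number and black bars are means of 3. Bhlhe41, Plpp3, Pdgfa, Gas6, C1qa and Gpnmb rise in every pair, and Fn1, Vcan, Trib3, Atf5, Ccl24 and Cdkn1a fall in every pair. The same sign in every pair holds for 642 of the 645 listed genes, which the selection largely fixes.

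Lipid-handling genes were higher in 10 of 44 and lower in 1 (25% listed). Plpp3, a surface phosphatase that breaks down lysophosphatidic acid, read 26.4, 33.6 and 34.4 at 12 h and 1089.8, 839.7 and 921 at 24 h (4.87 ± 0.22). Lpl, the lipase that releases fatty acids from lipoproteins, read 2221, 2437 and 2374 at 12 h and 7610.0, 7486 and 6281 at 24 h (1.60 ± 0.12). The fatty acid carrier genes Fabp4 and Fabp5 rose by 2.37 ± 0.13 and 1.65 ± 0.13. Lrp12, a member of the lipoprotein receptor family, read 335, 392 and 334 at 12 h and 1295, 1062 and 1616 at 24 h (1.89 ± 0.18). The lipid transfer gene Pltp and the prostaglandin D synthase gene Hpgds rose by 1.81 ± 0.19 and 1.81 ± 0.15. Apoe, the main apolipoprotein of macrophages, read 32159, 22171 and 35718 at 12 h and 63988, 56979 and 67578 at 24 h (1.09 ± 0.11), and did not pass without the block (adjusted p = 0.0558). The lower member was Ptgs2, the inducible prostaglandin synthase gene, at 213, 281 and 182 at 12 h and 92.5, 77.9 and 61.7 at 24 h (-1.53 ± 0.23). The cholesterol exporters Abca1 and Abcg1 were not listed.

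Lysosomal genes were higher in 6 of 55 members and lower in 0 (10.9% listed), and several were among the listed genes with the highest counts. Gpnmb, a glycoprotein of lysosomes and melanosomes, read 49884, 34330.0 and 42631 at 12 h and 192162, 150889 and 187828 at 24 h (2.07 ± 0.10). The protease gene Ctsb read 79125, 66378 and 87263 at 12 h and 199686, 152991 and 198744 at 24 h and Ctsd 70615, 52851 and 66651 at 12 h and 153033, 121086 and 147412 at 24 h, log2 differences of 1.24 ± 0.10 and 1.15 ± 0.10. Replicate 2 was the lowest library for all 3 genes at each time. Lipa, the acid lipase that frees cholesterol from its esters, read 15248, 8751 and 8686 at 12 h and 29506, 18219.8 and 22173 at 24 h (1.12 ± 0.11), and lost its call without the block (adjusted p = 0.114). Outside the list, the lysosomal exonuclease gene Pld3 rose by 1.37 ± 0.11. Most proton pump subunits and hydrolases of the list were not in the table.

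The E-box TCACGTG and the M-box TCATGTG, core motifs of the MiT-TFE family of lysosomal regulators, were searched on each strand of the RefSeq promoter windows (GRCm38.p6, from 250 bases before to 50 after the transcription start). RefSeq windows were at hand for 4 of the 6 lysosomal genes. Ctsd held the E-box, and Gpnmb, Ctsk and Lipa held neither. Over all 27025 genes with a window, 4.29% held the E-box and 4.31% the M-box, and among the 486 listed genes with a window 4.12% and 4.53%, so the listed genes were near the share over all genes. The Ctsd window is shown since it held the E-box at 2 places, with the matches in capitals (chr7:142387778-142388077, minus strand). The longer match is a palindrome and counts on each strand.
Ctsd: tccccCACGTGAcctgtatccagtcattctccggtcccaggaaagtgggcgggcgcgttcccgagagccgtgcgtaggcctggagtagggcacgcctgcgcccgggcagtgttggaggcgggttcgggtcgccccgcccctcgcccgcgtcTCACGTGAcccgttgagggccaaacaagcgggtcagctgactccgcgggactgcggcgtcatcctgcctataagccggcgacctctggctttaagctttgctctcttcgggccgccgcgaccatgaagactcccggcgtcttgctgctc

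Of 22 genes of osteoclasts and cell fusion 4 rose and 1 fell (22.7% listed). Atp6v0d2, a proton pump subunit also needed for cell fusion, read 570.1, 784 and 1524 at 12 h and 5836, 5339 and 9547 at 24 h (2.92 ± 0.15). Ctsk, the collagen-degrading protease of osteoclasts, read 1091, 1135 and 1806 at 12 h and 3044, 3499.8 and 4042 at 24 h (1.42 ± 0.13). Mmp9, a gelatinase also made by neutrophils, read 3930.1, 9436 and 5131 at 12 h and 11671, 26072 and 14756 at 24 h, with replicate 2 the highest at each time. Its within-pair differences were 1.57, 1.47 and 1.52, while without the block it did not pass (adjusted p = 0.107). Dcstamp, a fusion receptor gene, was low, at 1.17, 2.97 and 4.92 at 12 h and 19.7, 22.1 and 11.6 at 24 h, and did not pass limma (adjusted p = 0.0644). Car2, a carbonic anhydrase gene of acid-secreting cells, was the lower member (-1.06 ± 0.18) and did not pass without the block (adjusted p = 0.07). The osteoclast genes Acp5, Calcr, Itgb3 and Nfatc1 were not listed.

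Receptors of the scavenger, lectin and purine families were higher in 8 of 56 and lower in 0 (14.3% listed), of which 6 passed limma with the block and 3 with replicate 2 left out. Siglec1, a sialic acid lectin of resident macrophages, read 149, 41.5 and 34.2 at 12 h and 780.1, 469 and 508 at 24 h (3.23 ± 0.28), and its 12 h level was highest in replicate 1. Fcgr4, an activating Fc receptor gene, read 324, 435 and 458 at 12 h and 848, 1147 and 973 at 24 h (1.29 ± 0.15). The nucleotide receptor genes P2ry14 and P2ry13 rose by 1.17 ± 0.14 and 1.08 ± 0.24. Tlr3, the sensor of double-stranded RNA, read 40.2, 16.8 and 26.5 at 12 h and 106, 98.9 and 84.6 at 24 h (1.84 ± 0.33). Without the block Tlr3 and P2ry13 did not pass (adjusted p = 0.0536 and 0.125). Marco, Lyve1 and Folr2, markers of resident macrophage subsets, were listed at low levels. Marco was listed at 0 in all 12 h libraries and at 4.91, 8.33 and 4.21 at 24 h, so no fold is given. Lyve1 and Folr2 did not pass limma (adjusted p = 0.0649 and 0.351). The single listed member among 28 oxidative stress and iron genes was Slc11a1, a metal transporter of the phagosome, at 6143, 2780.5 and 3041 at 12 h and 14746, 8757 and 10446 at 24 h (1.57 ± 0.13). Replicate 1 was the highest library for it at each time.

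Of 18 class II and costimulation genes 3 rose and 1 fell (22.2% listed). H2-Aa, a class II chain, read 13764, 15509 and 18292 at 12 h and 32705, 34726 and 34585 at 24 h (1.11 ± 0.11), and H2-Eb1 7885, 8687 and 10007 at 12 h and 17422, 18549.9 and 17864 at 24 h (1.02 ± 0.11). H2-Ob, a chain of an inhibitor of peptide loading, did not pass limma (adjusted p = 0.0709). Pdcd1lg2, which encodes an inhibitory ligand for T cells, fell from 1842, 1941 and 2891 to 669, 548 and 1148 (-1.54 ± 0.14). Of 56 interferon-stimulated genes 4 were higher and 0 lower. That is 7.14% listed, near the share of 4.08% over all genes tested. All 4 passed limma with the block, and 1 with replicate 2 left out. Lgals3bp read 3118, 2735 and 2678 at 12 h and 6836, 5796 and 6146 at 24 h (1.14 ± 0.11), and Ly6a rose by 1.22 ± 0.17. Ifi44 and Iigp1 were low, at 38.0, 30.7 and 11.7 at 12 h and 92.5, 103 and 73.2 at 24 h and 4.77, 47.6 and 12.7 at 12 h and 89.5, 80.6 and 76.2 at 24 h, and lost their calls without the block (adjusted p = 0.115 and 0.185).

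Of 59 genes for cytokines and growth factors 6 rose and 2 fell (13.6% listed). Pdgfa, a growth factor for fibroblasts and other mesenchymal cells, read 213, 178 and 291 at 12 h and 1909, 1607 and 2320.3 at 24 h (3.11 ± 0.14; chromosome 5, 138976014 to 139000792). Igf1, insulin-like growth factor, read 2817, 1737 and 2306 at 12 h and 8192, 5441 and 8258 at 24 h (1.68 ± 0.11). Gdf15, a stress-induced member of the TGFβ superfamily, read 695, 406 and 491 at 12 h and 2402, 1550.3 and 2112 at 24 h (1.94 ± 0.13). In these 3 genes the groups did not overlap, as in 611 of the 645 listed genes, and all pairs rose by at least 1.54. Fstl1, a secreted glycoprotein gene, and Npy, the neuropeptide Y gene, started near the lower limit. They read 6.67, 10.9 and 9.82 at 12 h and 147, 279 and 197 at 24 h, and 1.19, 5.95 and 4.91 at 12 h and 79.6, 104 and 90.8 at 24 h. The cytokine Tnfsf15 was listed higher but did not pass limma (adjusted p = 0.0553). The inflammatory cytokine genes Il6 and Il1b fell, Il6 from 197, 138 and 187 to 86.7, 53.0 and 31.5 (-1.69 ± 0.31), and Il1b fell by 1.10 ± 0.16. Both lost their calls without the block (adjusted p = 0.0839 and 0.164). Tnf, Il10 and the other ligands of the list were not in the table.

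Of 43 chemokine and receptor genes 5 were higher and 3 lower (18.6% listed), of which 7 passed limma with the block and 3 with replicate 2 left out. Ccl24, an eosinophil attractant, read 1793, 2317 and 7545 at 12 h and 123, 99.1 and 651 at 24 h (-3.97 ± 0.19), with replicate 3 several times above the other replicates at each time. Ccl22, a T cell attractant, read 547, 752 and 1119 at 12 h and 266, 232 and 238 at 24 h (-1.65 ± 0.22). Ccr7, the receptor for lymph node homing, rose, with 497, 329 and 601 at 12 h and 2412, 1730.0 and 1896 at 24 h (2.11 ± 0.17). Cxcr1, Cxcr5 and Ccr9 were listed higher at low or moderate levels, and the platelet chemokine gene Ppbp rose by 1.12 ± 0.18. Cxcr5 did not pass limma (adjusted p = 0.111), and Cxcr1 and Ppbp did not without the block (0.0668 and 0.247). The monocyte chemokine receptor genes Ccr2 and Cx3cr1 were not listed.

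Matrix genes split evenly: 7 of 53 genes for matrix proteins, proteases and their inhibitors were higher and 7 lower (26.4% listed). Fn1, which encodes fibronectin, read 154903, 123225 and 150005 at 12 h and 25688, 19794 and 24614 at 24 h (-2.61 ± 0.10; chromosome 1, 71585473 to 71653280). The within-pair differences were nearly the same, -2.59, -2.64 and -2.61. Vcan, the proteoglycan versican, read 100711, 63819 and 54147 at 12 h and 33951, 20851 and 19984 at 24 h (-1.54 ± 0.10), with replicate 1 the highest at each time. F10, which encodes coagulation factor X, read 42012, 44590.3 and 55162 at 12 h and 22062, 23066 and 22365 at 24 h (-1.06 ± 0.11). These 3 were the lower genes with the highest counts. Itga1, a collagen-binding integrin gene, fell by 1.20 ± 0.11 on the log2 scale. Outside the list, the syndecan gene Sdc4 fell by 1.28 ± 0.20 and lost its call without the block (adjusted p = 0.12). Among the genes that rose, Mmp12, the macrophage elastase, read 302, 487 and 703 at 12 h and 1767, 2499.8 and 2404 at 24 h (2.23 ± 0.17), and Timp2, an inhibitor of matrix proteases, 2707, 2900.2 and 3249.9 at 12 h and 6274, 6204 and 7866 at 24 h (1.19 ± 0.11). Timp1, another inhibitor, went the other way, from 57.4, 68.2 and 141 to 11.8, 20.1 and 33.2 (-1.99 ± 0.31). Timp1 did not pass without the block (adjusted p = 0.11). The protease inhibitor gene Serpinb6b read 63.6, 75.2 and 60.8 at 12 h and 378, 286 and 358 at 24 h (2.33 ± 0.23), and the urokinase gene Plau rose by 1.32 ± 0.16.

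Few genes of the monocyte state were listed beyond these. Of 33 classical monocyte genes 3 fell (Fn1, F10 and Vcan) and 1 rose, the lysozyme gene Lyz1. That is 12.1% listed, against 4.08% of all genes tested. Lyz1 read 108, 119 and 76.5 at 12 h and 369, 369.6 and 98.5 at 24 h, and pair 3 differed by 0.36 on the log2 scale, so its groups overlapped and it did not pass limma (adjusted p = 0.0553). Lyz1 is a near copy of Lyz2, and reads may be split between them. Ly6c2, Ccr2, Chil3 and Plac8 were not listed. Of 18 genes of patrolling monocytes, Cd36 rose and Ace fell (11.1% listed). Ace, which encodes angiotensin-converting enzyme, fell from 129.9, 309 and 268 to 67.8, 113 and 46.1 (-1.63 ± 0.30), a call that was lost without the block (adjusted p = 0.145).

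Genes linked to alternative activation by interleukin 4 were lower in 6 of 25 and higher in 1, Mmp12 (28.0% listed). Besides Fn1, Ccl22, Ccl24 and Pdcd1lg2, these were Arg1 and Chil4. Arg1, which encodes the enzyme arginase 1, read 1372, 5263 and 19036 at 12 h and 331, 309.8 and 1501 at 24 h. Its replicates differed widely at each time, the 24 h library of replicate 3 lay above the 12 h library of replicate 1, and the within-pair log2 differences were -2.05, -4.08 and -3.66. Arg1 did not pass without the block (adjusted p = 0.161). Chil4, a chitinase-like gene with close paralogs, fell by 1.59 ± 0.26 on the log2 scale and lost its call without the block (0.223). Mrc1, Retnla and Mgl2 were not listed.

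Genes of amino acid shortage and the integrated stress response, a pathway that lowers protein synthesis and induces amino acid supply through ATF4, fell in 6 of 45 members and rose in 1, Gdf15 (15.6% listed). Trib3, a pseudokinase induced by this pathway, read 2482, 2347 and 2938 at 12 h and 295, 187 and 193 at 24 h (-3.54 ± 0.18, limma adjusted p = 7.29e-06). Atf5, a transcription factor of the same pathway, read 6206, 5299.8 and 6640.1 at 12 h and 2148, 1515 and 2011 at 24 h (-1.69 ± 0.11). Phgdh, the first enzyme of serine synthesis, read 4373, 3883 and 5104 at 12 h and 2187, 1832 and 2132 at 24 h (-1.11 ± 0.12), and Slc7a5, a transporter of large neutral amino acids, 4458, 3287 and 3417 at 12 h and 2014, 1299 and 1562 at 24 h (-1.20 ± 0.12). For these 4 genes the libraries of the 2 times did not overlap, and every pair fell. Of the 645 listed genes, 611 did not overlap and 642 kept the same sign in every pair, which the selection largely fixes. Aldh1l2, a mitochondrial folate enzyme gene, was low, at 52.3, 20.7 and 52.1 at 12 h and 12.9, 1.73 and 0.0461 at 24 h. Ddit4, an inhibitor of the growth kinase mTORC1 that also responds to hypoxia, read 236, 843 and 896 at 12 h and 176, 363 and 283 at 24 h and its groups overlapped. Neither passed without the block (adjusted p = 0.102 and 1). Atf4, Ddit3, Asns, Chac1 and Psat1 were not listed. The amino acid response motif TGATGNAA was in the promoter window of 1 of the 5 of these genes with a RefSeq window, Trib3, and in 4.51% of all genes with a window.

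Genes of hypoxia and glycolysis fell in 9 of 44 members and rose in 0 (20.5% listed), but the fall was uneven between replicates. Bnip3, a mitophagy receptor gene induced by low oxygen, read 751, 5409 and 6394 at 12 h and 706, 1585 and 831 at 24 h. Ankrd37, a further target of the hypoxia-inducible factor, read 97.4, 997 and 1201 at 12 h and 44.1, 267 and 69.2 at 24 h. Ak4, a mitochondrial adenylate kinase gene, read 83.2, 866 and 1052 at 12 h and 40.2, 195 and 63.9 at 24 h. In these genes the 12 h library of replicate 1 lay within the range of the 24 h libraries, and the 12 h libraries of replicates 2 and 3 were several times higher. The glucose transporter gene Slc2a1 read 1608, 4572 and 5735 at 12 h and 1473, 2111 and 1457 at 24 h, the glycolytic enzyme gene Tpi1 6961, 22002 and 30267 at 12 h and 6703, 10759 and 7311 at 24 h and the lactate exporter gene Slc16a3 3471, 8803 and 11154 at 12 h and 2546, 5243 and 2812 at 24 h. Egln3, Pdk1 and P4ha1, which encode an oxygen-sensing hydroxylase, a brake on pyruvate oxidation and a collagen hydroxylase, were listed too, again with replicate 1 as the lowest 12 h library.

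Across the 9 genes, replicate 1 at 12 h stood at 8.67% to 34.8% of the mean of replicates 2 and 3. In all 9 it lay below the highest 24 h library, which was replicate 2 in each of them. In all 9, replicates 2 and 3 at 12 h lay above every 24 h library. The median within-pair log2 difference was -0.13 in pair 1, -1.31 in pair 2 and -2.36 in pair 3. P4ha1 differed by 0.06 in pair 1, which makes it 1 of the 3 listed genes without the same sign in every pair. With limma 2 of the 9 passed with the block, Ak4 (adjusted p = 0.0165) and Ankrd37 (0.0182), and 0 passed without it. With a pseudocount of 0.1 in place of 1 neither of these passed (adjusted p = 0.0528 and 0.0589). Bnip3, Slc2a1, Tpi1 and Slc16a3 gave 0.0833, 0.0885, 0.127 and 0.0519 with the block. With pair 1 left out all 9 passed, with pair 3 left out all 9 passed, and with pair 2 left out 0 passed. A fit on 2 pairs leans on the spread pooled over genes. Genes outside the list, picked after their values were seen, had the same lowest 12 h library: Mgarp, a mitochondrial protein gene, read 0.588, 111 and 116 at 12 h and 0, 2.83 and 0.0101 at 24 h, and Plod2, a collagen lysyl hydroxylase gene, 7.22, 84.2 and 83.5 at 12 h and 6.86, 12.9 and 14.6 at 24 h. Neither Mgarp nor Plod2 passed limma with the block (adjusted p = 0.0605 and 0.248). Of the 19 lower genes with overlapping groups, which include the 9 hypoxia and glycolysis genes, replicate 1 was the lowest 12 h library in 17. In 15 of the 19, replicate 2 was the highest 24 h library. Overlap of a lower gene itself calls for a low 12 h or a high 24 h library. Over all 152 lower genes, replicate 1 was the lowest 12 h library in 69, and replicate 2 the highest 24 h library in 46. The summed erythroid markers were highest in replicate 1 at 12 h, and their part in the pattern was not tested.

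**Figure D4:**
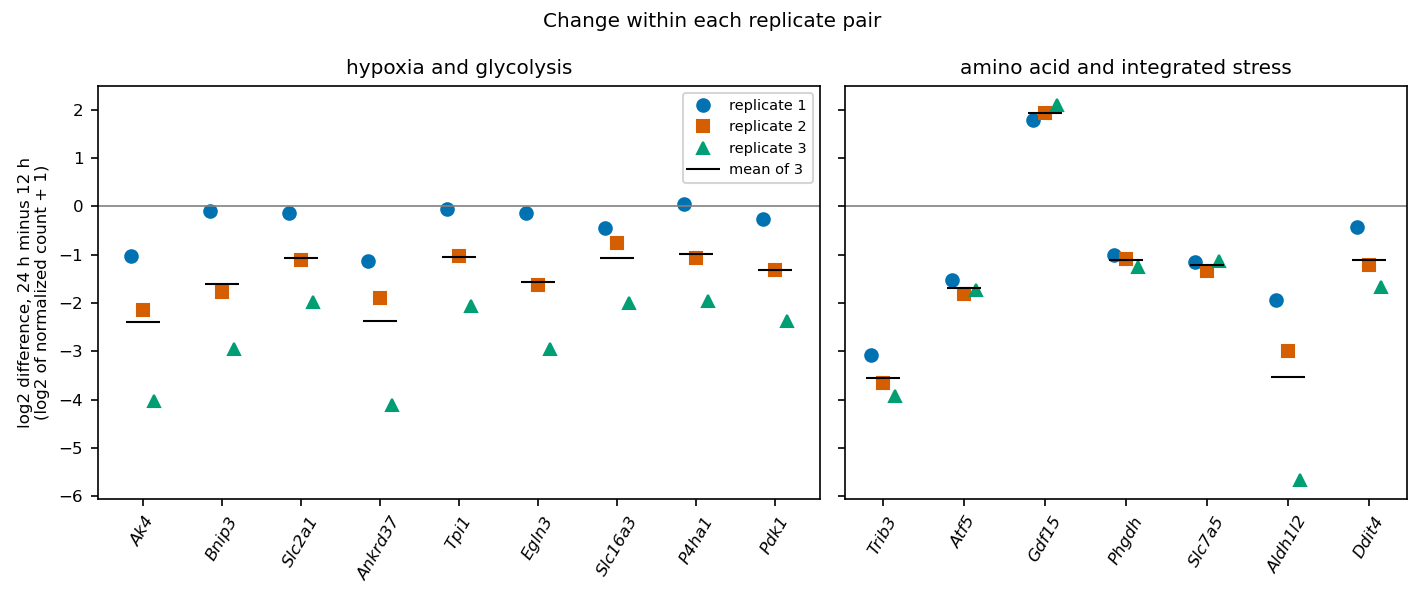
Points give the log2 difference of 24 h minus 12 h within each replicate pair (log2 of normalized count + 1) for the 9 listed hypoxia and glycolysis genes on the left and the 7 listed amino acid stress genes on the right; black bars are means of 3 pairs. On the left pair 1 lies nearest 0 for all 9 genes and pair 3 between -1.96 and -4.10, while on the right every pair of Trib3, Atf5, Phgdh and Slc7a5 is below 0 and every pair of Gdf15 above it.

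The core motif of the hypoxia-inducible factor, ACGTG on either strand, was looked for in the same windows. It was in a window of 7 of the 9 genes, all but Tpi1 and Pdk1 (77.8%), against 21.8% of all genes with a window and 23.9% of the listed genes with one. Some genes have several windows, and per window the shares were 53.85% and, over all windows, 19.6%. The list was made of hypoxia and glycolysis genes, with earlier results of these data known, so these shares are no test. The motif is short and lies within the E-box TCACGTG, so a match is a description of letters and not a bound site. The windows of 3 genes, each with 2 matches, are shown, and a window of Ak4 also held 2. Capitals mark the matches, which in Bnip3 form a palindrome read on each strand. Replicate 1 was the lowest 12 h library in all 9 genes, with or without the motif. Bnip3 lies at chr7:138909457-138909756, minus strand, Ankrd37 at chr8:45999801-46000100, minus strand, and Slc16a3 at chr11:120948817-120949116, plus strand.
Bnip3: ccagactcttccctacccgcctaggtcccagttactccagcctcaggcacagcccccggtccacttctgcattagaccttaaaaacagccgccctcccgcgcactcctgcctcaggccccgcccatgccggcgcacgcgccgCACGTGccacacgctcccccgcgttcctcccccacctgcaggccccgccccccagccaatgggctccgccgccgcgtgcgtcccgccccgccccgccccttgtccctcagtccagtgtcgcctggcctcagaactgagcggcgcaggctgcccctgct
Ankrd37: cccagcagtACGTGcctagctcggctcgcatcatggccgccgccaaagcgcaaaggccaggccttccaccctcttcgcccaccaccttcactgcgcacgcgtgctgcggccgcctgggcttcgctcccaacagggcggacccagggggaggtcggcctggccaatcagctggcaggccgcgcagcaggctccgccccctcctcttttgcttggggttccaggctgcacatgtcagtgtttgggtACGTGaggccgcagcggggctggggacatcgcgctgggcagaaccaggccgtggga
Slc16a3: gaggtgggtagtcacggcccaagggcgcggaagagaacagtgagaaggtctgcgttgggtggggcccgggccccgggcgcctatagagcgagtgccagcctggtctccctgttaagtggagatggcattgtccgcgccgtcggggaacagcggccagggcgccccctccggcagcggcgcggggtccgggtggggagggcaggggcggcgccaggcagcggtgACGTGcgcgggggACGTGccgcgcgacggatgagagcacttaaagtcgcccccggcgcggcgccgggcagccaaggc

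Cell cycle and signalling lists each held 3 listed genes. They are 6.38% of the proliferation genes, 8.82% of those of cytokine receptor signalling and 11.5% of the NF-κB feedback genes. The share over all genes tested was 4.08%. Of 47 proliferation genes, Ccnd1, a cyclin of the early cell cycle that M-CSF induces, read 109, 77.2 and 99.1 at 12 h and 239, 243 and 326 at 24 h (1.49 ± 0.22). Cdkn1a, the inhibitor p21, read 6124, 5822 and 8376 at 12 h and 2970.4, 2846 and 2778 at 24 h (-1.22 ± 0.14), and Cdkn1c, a related inhibitor, rose by 1.23 ± 0.24, a call lost without the block (adjusted p = 0.0699). These 3 passed limma with the block, and 1 with replicate 2 left out. The S phase and mitosis genes of the list, such as Mki67, Top2a and Mcm2 to Mcm7, were not listed. Of 34 genes of cytokine receptor signalling, the feedback inhibitor genes Cish and Socs1 fell, Cish from 598, 542 and 1041 to 212, 190.4 and 237 (-1.71 ± 0.18). Dusp4, a phosphatase gene of the ERK pathway, rose by 1.48 ± 0.22. Socs1 and Dusp4 did not pass without the block (adjusted p = 0.161 and 0.0809). Of 26 NF-κB feedback genes 3 fell, Ptgs2, the survival gene Bcl2a1a and Ier3, and 0 rose. All 3 passed limma with the block, and 0 with replicate 2 left out. Ier3 read 7196, 6212 and 10297 at 12 h and 5067, 2559 and 4064 at 24 h, and Ier3 and Bcl2a1a lost their calls without the block (adjusted p = 0.185 and 0.0935). Bcl2a1a has near-identical copies, among which reads may be split.

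Leaving out the lowest 25% by mean level, genes with overlapping groups and unnamed predicted genes, the authors' deposited table had its largest log2 fold changes in Prss46, Bex1, Tceal7, Plpp3, Fstl1 and Npy on the higher side. Prss46, a serine protease gene, read 0.00748, 0 and 0.986 at 12 h and 73.8, 70.5 and 68.9 at 24 h. Bex1 and Tceal7, genes of a small X-linked family, read 3.37, 3.95 and 8.86 at 12 h and 106, 211 and 401 at 24 h, and 1.1, 0.988 and 0.979 at 12 h and 24.5, 53.1 and 87.4 at 24 h. On the lower side they were in Sh2d6, Nfatc4, Ccl24, Trib3, Car6 and Ehd2. Ehd2, a membrane remodelling gene of caveolae, read 79.2, 93.0 and 138 at 12 h and 9.82, 9.04 and 19.7 at 24 h (-2.96 ± 0.33), and Car6, a secreted carbonic anhydrase gene, 123, 98.9 and 264 at 12 h and 12.8, 4.29 and 32.1 at 24 h (-3.47 ± 0.35). The semaphorin receptor gene Plxna1, among the highest counts of the genes that rose, read 11187, 7732 and 7439.7 at 12 h and 22542, 14998 and 20569 at 24 h and missed the threshold without the block (adjusted p = 0.0531).

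Markers of other cells moved with time as well. Of 21 neutrophil markers 6 rose (28.6% listed, against 4.08% of all genes tested). Their summed level went from 6433 to 15120.0 across 12 h libraries to 17400.0 to 41070.0 at 24 h. Mmp9 and Retnlg made up most of that sum, and Mmp9 is also in the osteoclast and matrix lists. All 6 passed limma with the block, and 4 with replicate 2 left out. Retnlg, a resistin-like gene, read 2303, 5331 and 2619.8 at 12 h and 4823, 13188 and 6188 at 24 h. The stefin genes Stfa1, Stfa2, Stfa2l1 and Stfa3, near copies of each other, rose by 1.55 ± 0.23, 3.48 ± 0.31, 2.39 ± 0.17 and 2.18 ± 0.34. Retnlg, Mmp9, Stfa1 and Stfa3 did not pass without the block (adjusted p = 0.438, 0.107, 0.113 and 0.0772). The defining neutrophil genes Ly6g, Cxcr2, S100a8 and S100a9 were not listed. Of 11 erythroid markers 2 fell (18.2% listed). The anion exchanger gene Slc4a1 fell from 1093, 432 and 357 to 275, 133 and 40.1. Ermap, a red cell membrane protein gene, fell by 1.89 ± 0.36 on the log2 scale, and the hemoglobin genes were not listed. Both passed limma with the block and with replicate 1 left out, 1 passed with replicate 2 left out, and neither passed without the block (adjusted p = 0.209 and 0.256).

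Of 14 dendritic cell markers Ccr7, Ccr9 and Siglech rose (21.4% listed, against 4.08% of all genes tested), Siglech from 223, 314 and 284 to 486, 749.6 and 571. All 3 passed limma with the block, and 1 with replicate 2 left out. Siglech did not pass without the block (adjusted p = 0.0689). Of 14 B cell markers Cd22, Fcmr and Ms4a1 were listed higher (21.4%). Of these 1 passed limma with the block, and 2 with replicate 3 left out. Cd22, an inhibitory lectin, read 278, 261 and 357 at 12 h and 977, 897 and 1195 at 24 h (1.77 ± 0.14), and Fcmr and Ms4a1 were low and did not pass limma (adjusted p = 0.128 and 0.119). Of 17 T and NK cell markers Il7r and Cd4 were listed higher (11.8%). Il7r read 2745, 2877 and 3181 at 12 h and 8549, 7161 and 8501 at 24 h (1.46 ± 0.11), and Cd4 did not pass limma (adjusted p = 0.0718). Of 10 megakaryocyte markers Vwf rose by 1.36 ± 0.13, beside Ppbp (20% listed). The endothelial receptor gene Kdr read 269, 285 and 287 at 12 h and 780.0, 729.8 and 994 at 24 h (1.56 ± 0.16), and the collagen gene Col1a2, at 3.68, 34.7 and 26.5 at 12 h and 0, 4.68 and 2.1 at 24 h, fell and lost its call without the block (adjusted p = 0.349). None of 10 mast cell and basophil markers were listed. The part of a changing mix of cells in the gene groups above was not tested.

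The same time change was measured in libraries not used to choose these genes, those of the cells that also received IFNβ. The deposited table of 24 h against 12 h under IFNβ holds 602 genes (3.87% of 15541 implied tested), 335 higher (2.16%) and 267 lower (1.72%). Of the 493 genes that rose in M-CSF alone, 160 also rose under IFNβ (32.5%, and 47.8% of the genes that rose there). Of the 152 that fell, 57 also fell (37.5%, and 21.3% of those that fell there). In the authors' deposited tables Bhlhe41 changed by 4.15 alone and 2.47 with IFNβ on the log2 scale, Plpp3 by 4.91 and 3.15, Pdgfa by 3.10 and 2.39, Gas6 by 3.74 and 5.94, and C1qa by 3.09 and 3.47. The lower genes Fn1 and Trib3 changed by -2.61 and -3.52 alone and by -2.50 and -3.06 with IFNβ. Several lists had 0 listed members with the same direction under IFNβ: hypoxia and glycolysis (0 of 9), class II and costimulation (0 of 4), interferon-stimulated genes (0 of 4) and B cell markers (0 of 3), besides lists with fewer listed members. The difference between the 2 settings was not tested here, and absence from the table is no sign of no change. Opposite directions were listed for 7 genes, among them Arg1.

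**Figure D5:**
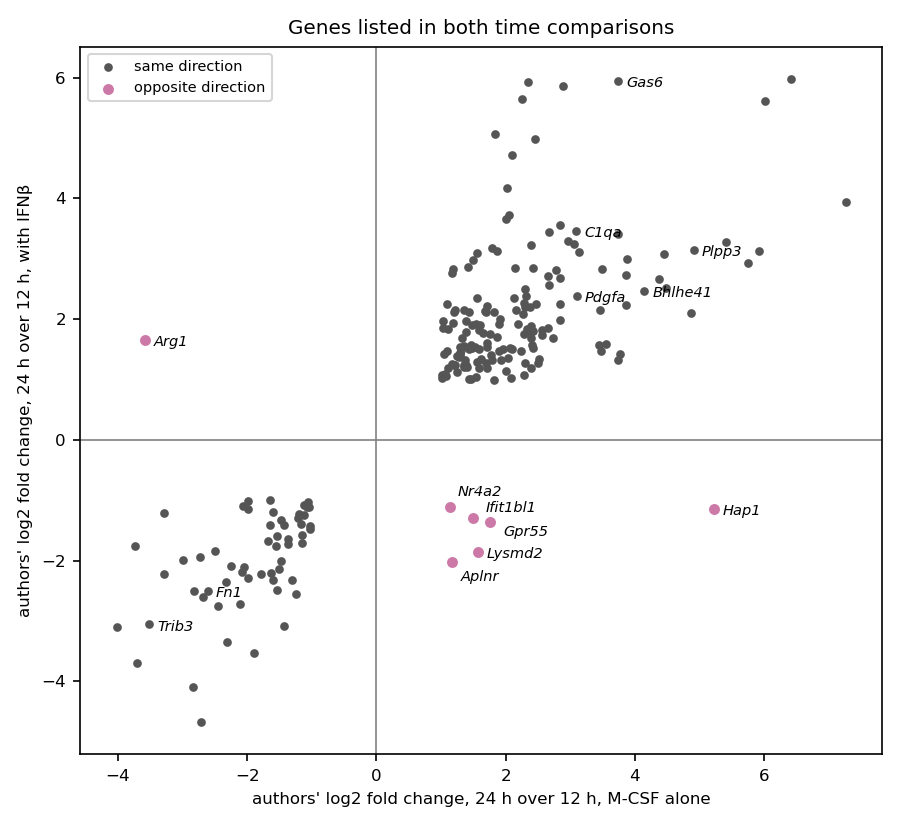
Points are the 224 genes listed in both time comparisons, with the authors' log2 fold change of 24 h over 12 h in M-CSF alone on the horizontal axis and with IFNβ on the vertical axis. Of these 217 share their direction, and the 7 that do not are coloured and named.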

How the data were processed

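The 6 control libraries were made from total RNA. The tools named are bcl2fastq, HISAT2 2.2.1 and edgeR 3.3.3, with the build GRCm38, per the submitters' processing notes. Counting tool, annotation, strand setting and filters: not given in the sources used here. Reads of overlapping genes or near copies therefore cannot be told apart. Per the file headers, the authors give each gene's value in each library, with its log2 fold change, p-value and adjusted p-value. No header names the unit of the library columns; from their values they are a signal, normalized read counts by the authors, and each deposited table has its own scale. Whole reads could not be recovered, and depth is unknown.

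Calls and directions are the authors'. limma 3.58.1 (R 4.3.3) was fitted to log2(value + 1), blocking on the replicate number, with a variance trend, with Benjamini-Hochberg adjustment over the 15822 genes implied by the deposited p-values. The block was used because the comparison was set up in pairs by number. Same-numbered libraries also deviated together from their group means (r across the 645 genes, which are not independent, 0.383, 0.400 and 0.205, other pairs -0.300 to -0.026). Deviations sum to 0 within each group, so positive values for same-numbered libraries make the others negative on balance. No 2 libraries agreed within counting noise. On simulated counts of the 645 genes with 200 changed, limma adjusted over 15822 genes recovered 42.7% of 2-fold and 96.7% of 4-fold changes with 0 false calls. Adjusted over the 645 genes alone, it recovered 80.0% and 97.8% with 4 false calls. Adjusting over far more genes than were simulated makes false calls rare by itself. Simulated pair effects were drawn independently for each gene, unlike the replicate patterns above, so the simulation does not measure false calls in these data.

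The members, the 21 gene lists and the 9 marker lists were chosen with earlier results of these data known. Named genes are, per list, up to 4 listed members with the smallest deposited p, the 8 with the highest mean in each direction, the 6 with the largest authors' log2 fold change in each direction (outside the lowest 25% by mean, without overlap, no unnamed predicted genes), and listed markers; others are named as members of a count, and some genes are not reported here. Of the 645 identifiers, 624 matched a RefSeq symbol, 16 a synonym and 5 none. Promoter sequences are from RefSeq (GRCm38.p6). Alternatives were no replicate block, a pseudocount of 0.1, a filter, no variance trend, each pair or library left out and stricter thresholds. Python 3.11.15 with pandas 2.3.3, numpy 2.4.6 and matplotlib 3.10.9 was used.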

Additional observations from a re-analysis of the deposited data

Results flagged for a closer look

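In 7 genes every replicate pair moved one way in M-CSF alone and every pair moved the opposite way with IFNβ. These are all the genes listed in both time comparisons with opposite directions. The selection therefore largely fixes the agreement of their pairs, as in M-CSF alone 642 of the 645 listed genes kept the same sign in every pair. The difference between the 2 settings was not tested. The values below are the authors' log2 fold changes of 24 h over 12 h, alone and then with IFNβ, from the authors' deposited tables. The arginase gene Arg1 changed by -3.58 and 1.66, the reverse of the other 6. Nr4a2, a nuclear receptor gene of the immediate early class, changed by 1.13 and -1.11. Aplnr, the apelin receptor gene, changed by 1.18 and -2.03, and Gpr55, a lipid-sensing receptor gene, by 1.76 and -1.36. Ifit1bl1, an interferon-induced gene with close paralogs, changed by 1.49 and -1.29, Lysmd2 by 1.58 and -1.85 and Hap1 by 5.23 and -1.15. Hap1 was listed at 0 in all 12 h controls, so its value in M-CSF alone is no fold. In M-CSF alone, Arg1 and Ifit1bl1 passed limma with the block (adjusted p = 0.000265 and 0.00619), and Nr4a2, Aplnr, Hap1, Gpr55 and Lysmd2 did not (0.0602, 0.0644, 0.093, 0.137 and 0.16). Without the block none of the 7 passed, with adjusted p from 0.0571 to 0.23.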

How the results depend on the processing

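Of the listed genes 473 passed limma. Without the replicate block 277 passed, 273 of them among the 473, and 49 passed with no variance trend, so the count depends on the block and on the variance model; the cause was not tested. With a pseudocount of 0.1 it was 395, and 381 without the lowest 25% by mean. Leaving out a replicate pair gave 203 to 537, with 203 when replicate 2 was left out; with 2 pairs the fit leans on the spread pooled over genes, so higher counts are no sign of stability. Leaving out 1 library with no block gave 228, 115 and 141 for 12 h replicates 1, 2 and 3 and 93, 91 and 67 for 24 h replicates 1, 2 and 3, each with fewer samples than the 277. Of the 645 listed genes 494 had an authors' adjusted p under 0.01, and 232 changed at least 4-fold. Of the 108 listed genes of the gene lists 95 and 30 did. Of the 217 genes with the same direction under IFNβ, 103 changed at least 4-fold in M-CSF alone, and 165 had an adjusted p under 0.01 in both tables. Of the 97 genes that the rule names 88 passed limma, 62 without the block, 84 with a pseudocount of 0.1, 16 with no variance trend, and 62 to 95 with a pair left out. None of the 97 changed direction under these alternatives. Depth per library is unknown, which limits what can be said of low genes.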

Other observations

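The following 6 genes outside the lists were picked after their values were seen because they rose, so they stand for no group. Rragd, a GTPase that signals lysosomal nutrients to mTORC1, read 65.8, 59.3 and 94.3 at 12 h and 402, 339 and 443 at 24 h (2.43 ± 0.20). Mcoln3, a cation channel of endosomes, read 119.5, 37.5 and 47.0 at 12 h and 806, 670.3 and 795 at 24 h (3.64 ± 0.28), and Gpr137b, a lysosomal membrane protein gene, read 1722, 1283 and 1201 at 12 h and 4266, 3504 and 4022 at 24 h. The late endosomal GTPase gene Rab7b, the heparan sulfate degrading enzyme gene Hgsnat and Tecpr1, which takes part in the fusion of autophagosomes with lysosomes, rose by 1.41 ± 0.11, 1.21 ± 0.12 and 1.59 ± 0.11. All 6 passed limma with the block and without it.

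The genes below were also picked after their values were seen. Of the 9 plexin genes in RefSeq, 3 were listed, all higher: Plxna1, Plxna2 (2.64 ± 0.37) and Plxnb3, which did not pass limma (adjusted p = 0.0817). That is 33.3%, against 4.08% of all genes tested, and the highest share of several symbol families counted. The shares were 8% for Gpr genes, 5.80% for Rab genes, 5% for semaphorin genes, 1.06% for Kcn genes and 0% for symbols starting with Fam20. The VEGF receptor gene Flt1 read 278, 443 and 479.9 at 12 h and 110.2, 83.2 and 91.9 at 24 h (-2.03 ± 0.25), the reverse of its relative Kdr. Tgfbr2, a TGFβ receptor subunit gene, rose by 1.33 ± 0.13. Of the heparan sulfate proteoglycan genes, Sdc1 read 237, 368 and 461 at 12 h and 1512, 1955 and 1543 at 24 h (2.27 ± 0.19), the reverse of Sdc4, and the sulfotransferase gene Ndst1 rose by 1.31 ± 0.12. The DNA methyltransferase gene Dnmt3a read 2204, 3026 and 2727 at 12 h and 6716, 6911 and 7899 at 24 h (1.44 ± 0.12). Soat2, a cholesterol esterifying enzyme gene, fell by 2.26 ± 0.14 on the log2 scale, with 1434, 1164 and 1199 at 12 h and 312, 245 and 238 at 24 h. Of 375 solute carrier genes 15 were listed (4%), 9 higher and 6 lower, near the share over all genes.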
